A study of Mus musculus with 21 samples.

Results

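Transcripts of 10 DNA glycosylases, enzymes that open base-excision repair, were measured in brown fat and muscle of BATI4KO mice. The members were chosen by gene symbol, 10 of the 28541 gene models in the count tables: Nthl1, Ogg1, Neil1, Neil2, Neil3, Mutyh, Ung, Smug1, Mbd4 and Mpg. For a symbol with several models the one with the most counts would be taken, but each of these symbols had 1 model. Nthl1 was chosen for its values in these libraries, higher in BATI4KO fat and lower in BATI4KO muscle. All its differences between groups are therefore given as a description, with no test. The other 9 members were taken by function and were tested.

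RNA was sequenced from 2 whole tissues, heat-producing brown fat (BAT, brown adipose tissue) and white vastus lateralis (WV) of the thigh, where fast-twitch fibres prevail. Mice labelled BATI4 KO were set against floxed littermates, which carry the same loxP-flanked gene but, as controls, keep it. From knowledge of the study, in BATI4KO mice brown adipocytes lack Irf4, a transcription factor, so WV is a tissue that the deletion does not target. No Cre driver, strain, age or treatment appears in the labels used here, and whole tissue holds other cells besides brown adipocytes and muscle fibres. The floxed group gave 5 libraries per tissue, and the BATI4KO group gave 6 of BAT and 5 of WV. In BAT, 3 libraries of each genotype carry a short title number (1, 2 or 3) and the others a longer tag, as in FX_5497, and 4 long tags occur in both tissues. The sources used here do not tie libraries to separate animals, so the p-values rest on the spread between these libraries alone, which may be technical. In whole tissue, fewer cells of a type and less RNA per cell cannot be told apart.

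Base-excision repair removes small lesions, such as oxidised, deaminated or alkylated bases, without unwinding a long stretch of DNA. A glycosylase flips the damaged base out of the helix and cuts its bond to the sugar. Apex1 or the lyase activity of the glycosylase then nicks the backbone, and a polymerase and a ligase fill and seal the gap. Several of these enzymes also work in mitochondria, and tissues that respire strongly, such as brown fat and muscle, make reactive oxygen that oxidises bases.

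Nthl1 lies head to head with Tsc2, the gene of tuberin, which restrains mTORC1. The promoter windows of 9 members were found in RefSeq's table for GRCm38.p6, each running from 250 bases before to 50 after the start of transcription. Neil2 was not matched. The window of Nthl1 (chr17:24632432-24632731, plus strand) and that of Mutyh (chr4:116807484-116807783, plus strand) are shown because these 2 members share their promoter stretch with a gene on the opposite strand. Capitals mark the bases that also lie in the window of that partner, Tsc2 for Nthl1 and Toe1 for Mutyh.
Nthl1: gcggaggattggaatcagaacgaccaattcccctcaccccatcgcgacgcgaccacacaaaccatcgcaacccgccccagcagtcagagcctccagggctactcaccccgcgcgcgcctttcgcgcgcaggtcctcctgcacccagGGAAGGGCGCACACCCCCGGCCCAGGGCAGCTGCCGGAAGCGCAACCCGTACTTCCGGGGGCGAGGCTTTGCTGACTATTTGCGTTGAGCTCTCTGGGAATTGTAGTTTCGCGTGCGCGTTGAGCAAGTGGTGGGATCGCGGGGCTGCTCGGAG
Mutyh: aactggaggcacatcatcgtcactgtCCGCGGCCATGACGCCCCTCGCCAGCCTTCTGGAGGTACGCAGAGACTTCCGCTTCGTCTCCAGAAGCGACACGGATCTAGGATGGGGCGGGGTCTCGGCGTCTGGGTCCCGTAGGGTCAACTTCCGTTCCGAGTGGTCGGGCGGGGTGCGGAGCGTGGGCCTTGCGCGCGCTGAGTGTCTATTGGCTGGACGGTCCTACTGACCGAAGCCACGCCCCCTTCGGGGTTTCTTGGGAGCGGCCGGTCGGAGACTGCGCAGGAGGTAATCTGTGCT
Nthl1 shares 154 of its bases with the window of Tsc2, and Mutyh shares 274 with that of Toe1. A divergent partner of this kind was found for 9.86% of the 32851 windows of the table. The Nthl1 window is 65.3% G and C, against a median of 52.7% over all windows, and its ratio of observed to expected CpG is 0.941, against a median of 0.384. The Mutyh window shown stands at a ratio of 0.988. A second Mutyh window in the table (chr4:116814069-116814368, plus strand), with no divergent partner, has 43.7% G and C and a ratio of 0.14, below both medians. None of the 9 matched members held any of 5 short motifs searched on both strands. These were the tandem IRF core (3.44% of all windows), the ETS-IRF composite (2.72%), the E-box CACGTG (7.15%), the cAMP response element TGACGTCA (1.79%) and the NRF1 motif (0.971%). The 2 IRF patterns can overlap each other, and an absent match says only that these letters are not in this window.

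The BAT libraries held 20219479 to 41773148 counts each, those of WV 30479508 to 40328627. Irf4 checked the labels: it averaged 29.2 ± 12.3 CPM (SD, n = 5) in floxed BAT and 5.36 ± 0.396 (n = 6) in BATI4KO BAT, a log2 difference of -2.45 with an edgeR adjusted p of 0.0026. CPM are counts scaled to a common effective library size, by TMM over all 21 libraries. Fibre genes marked WV (10 of 10 listed markers detected, summing to 253900 to 579500 CPM), and brown adipocyte genes marked BAT (8 of 8 detected, 4255 to 13430 CPM in BAT and 63.4 to 158.8 in WV). At an edgeR adjusted p under 0.05, all 10 fibre genes were lower in BAT in both genotypes. Of the 8 brown adipocyte genes, 7 were higher in each. Of all genes, 31.7% were lower and 34.1% higher in floxed BAT, and 33.1% and 37.4% in BATI4KO BAT. The same 10 fibre genes summed to 132.3 to 1046 CPM in floxed BAT and 553.6 to 16300 in BATI4KO BAT, and all 10 had a positive genotype difference there, with 0 of them passing. The brown adipocyte genes had negative differences in BAT in 7 of 8, with a median log2 of -0.38, and 0 passed. The 9 lymphocyte genes in the tables summed to 12.3 to 21.5 CPM in floxed and 15.97 to 61.3 in BATI4KO BAT. Of these, 8 were tested for genotype in BAT. All 8 had positive differences, with a median log2 of 0.97, and 0 passed. No gene of these lists was at 0 in a whole group. The part of these lists in the results was not tested, though the fibre genes' mean level was added to a fit as a covariate.

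Nthl1 encodes the glycosylase that removes oxidised pyrimidines such as thymine glycol, and it was among the thinly counted members. In floxed BAT it had 47, 40 and 36 counts in the libraries numbered 1, 2 and 3, and 38 in each of the libraries titled FX_5497 and FX_5503. These are 1.09, 0.959, 1.29, 0.960 and 0.788 CPM. The 6 BATI4KO libraries of BAT ran from 58 to 102 counts, or from 1.85 to 2.24 CPM with a median of 2.01. Every BATI4KO library lay above every floxed one in BAT.

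The BAT mean was 1.02 ± 0.188 CPM (SD, n = 5) in floxed and 2.03 ± 0.143 (n = 6) in BATI4KO mice, a log2 difference of 1.02 (SE 0.15). Libraries did not overlap between genotypes, with the BATI4KO group higher, for 0.586% of the 16051 genes tested in BAT. Nthl1 was picked from this contrast, so nothing is read from that share. Within the short-number libraries the means were 1.11 and 2.04 CPM, and within the long-tag libraries 0.874 and 2.03. The difference was 0.99 (SE 0.21) with the fibre genes' mean level as a covariate. All 10 fibre genes had positive genotype differences in BAT (median log2 2.68), so this fit cannot fully separate their level from genotype. Their part in the Nthl1 values was not tested. The relative spread within a genotype was 18.5% (floxed) and 7.04% (BATI4KO), where counting error alone gives 15.9% and 11.3%. The spread between libraries was thus close to counting error in one genotype and below it in the other.

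In floxed WV Nthl1 had 42, 72, 68, 47 and 44 counts in the libraries FX_5413, FX_5415, FX_5497, FX_5503 and FX_5514, or 2.06, 2.47, 2.52, 1.99 and 2.09 CPM. In BATI4KO WV it had 41, 44, 56, 33 and 29 counts in KO_5492, KO_5493, KO_5494, KO_5495 and KO_5496, or 1.31, 1.78, 1.96, 1.48 and 1.41 CPM. All 5 BATI4KO libraries lay below the floxed mean, but the highest of them nearly touched the lowest floxed one. The means were 2.23 ± 0.249 CPM (SD, n = 5) and 1.59 ± 0.273 (n = 5), a log2 difference of -0.51 (SE 0.19). Scaled by TMM within WV alone, the groups overlapped, at 1.44 to 1.87 CPM floxed and 0.942 to 1.45 BATI4KO. They overlapped by library totals too, at 1.28 to 2.34 and 0.844 to 1.56 CPM. In BAT, the genotypes stayed apart on both of these scales. Libraries did not overlap, with BATI4KO lower, for 0.723% of the 14529 genes tested in WV. The WV spread, 11.2% and 17.2%, was also close to the counting error of 13.5% and 15.7%. The 5 macrophage genes in the tables all had negative differences in WV, with a median log2 of -0.45 and none passing. Their sums were 17.7 to 36.7 CPM in BATI4KO against 14.6 to 73.3 in floxed WV. Brown adipocyte genes in WV were negative for 4 of 6 tested, with a median of -0.57 and none passing, and with sums of 63.4 to 145.9 CPM in BATI4KO against 117.7 to 158.8 in floxed WV. The part of either list in the Nthl1 values was not tested.

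Put together, Nthl1 in floxed mice was lower in BAT than in WV (log2 difference of -1.23, SE 0.19), with no overlap of libraries. In BATI4KO mice it was 0.28 (SE 0.17) higher in BAT, with overlap. Both sizes rest on the scaling: by library totals they were -0.55 (floxed) and 1.23 (BATI4KO). On that scale the floxed libraries overlapped, at 0.910 to 1.67 CPM in BAT and 1.28 to 2.34 in WV. The BATI4KO libraries did not, at 2.47 to 3.05 and 0.844 to 1.565 CPM. The genotype difference in BAT exceeded that in WV by 1.51 (SE 0.22). This too is a description, since the opposite directions chose the gene. The plot of all members by library shows Nthl1 as the only panel in which the BAT genotypes stand apart.

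**Figure D1:**
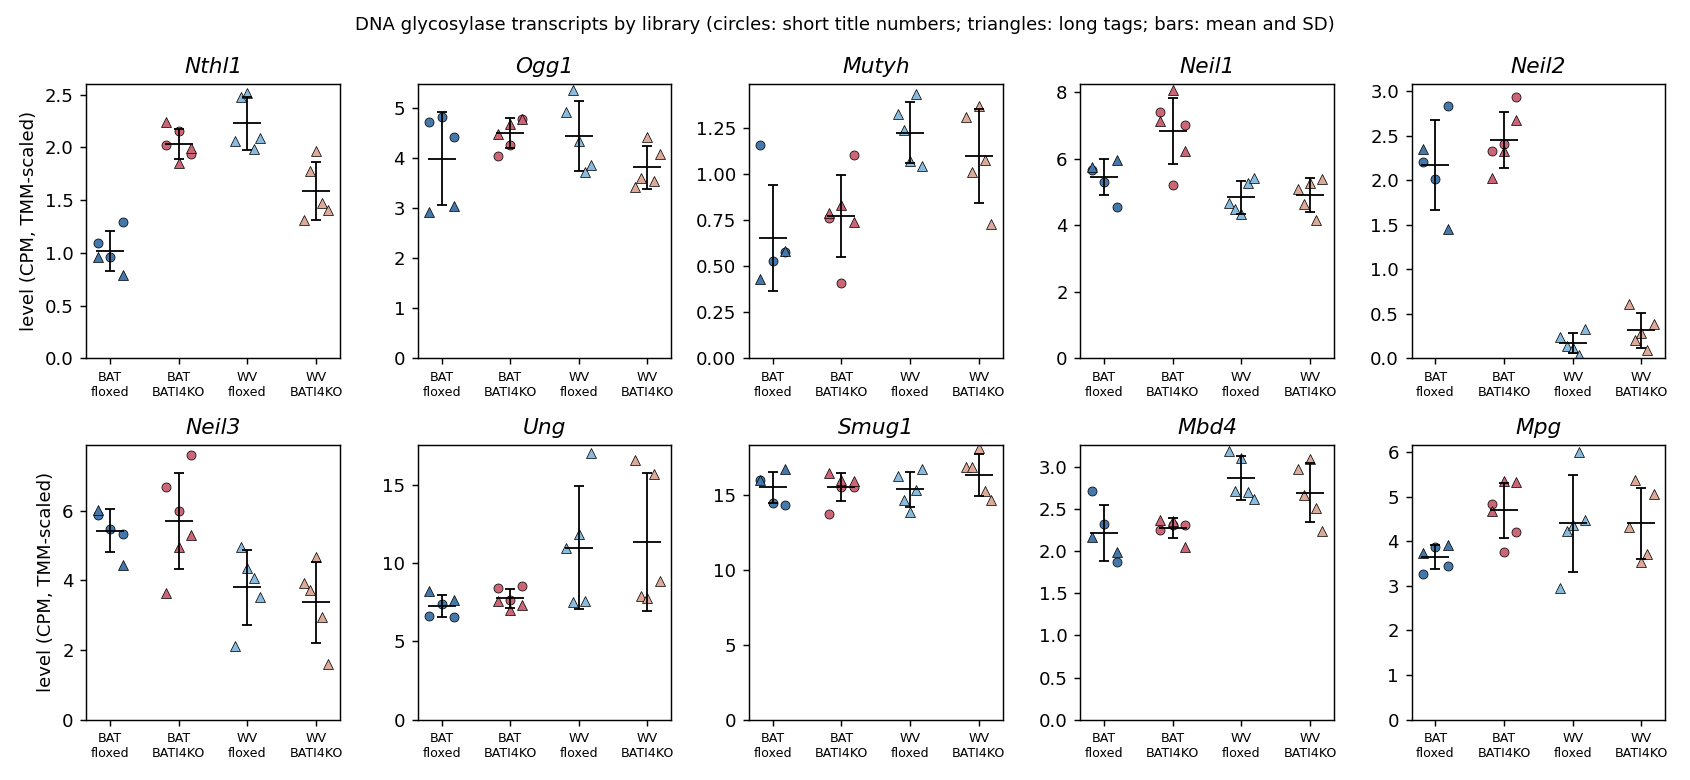
Levels of the 10 glycosylase transcripts (CPM, TMM-scaled over 21 libraries, linear axis from 0) by library in the 4 groups; circles are BAT libraries with short title numbers, triangles all libraries with long tags, and bars give the mean and SD. Nthl1 runs from 0.788 to 1.29 CPM in floxed BAT and from 1.85 to 2.24 in BATI4KO BAT, and Neil2 stays at or below 0.608 CPM in WV.

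Among the other 9 members, none passed the genotype test in BAT (edgeR's quasi-likelihood test, Benjamini-Hochberg adjustment over all genes, threshold 0.05). The background was 0.0436%: 7 of 16051 genes were called, so a count of 0 of 9 lies near that share. At an unadjusted p under 0.05 there were 2, Neil1 and Mpg, where 14.7% of all genes had such a p. DESeq2 and limma voom also called 0, where they called 372 and 8 of all 16051 genes. Of the 9, 8 had a positive difference, with a median of 0.20 against -0.0071 over all genes tested. For the title style, 31.3% of all genes in BAT were called in edgeR, and 0 of the 10 members, in edgeR, DESeq2 and limma voom alike. DESeq2 and limma voom called 5470 and 5135 of all 16051 genes for style. Of the 9, 1 had an unadjusted p under 0.05 for style, Neil3, where 42.6% of all genes had one.

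Ogg1, which excises 8-oxoguanine paired with cytosine, is the closest partner of Nthl1 in mechanism. In floxed BAT it stood at 4.71, 4.82 and 4.42 CPM in the short-number libraries and at 2.93 and 3.05 in the 2 long-tag libraries. The 6 BATI4KO libraries lay between 4.04 and 4.78 CPM (median 4.58), inside the floxed range. The difference of 0.22 (SE 0.14) did not pass (edgeR adjusted p = 0.499). The estimate differed between title styles, which was not tested as an interaction: the means went from 4.65 to 4.36 CPM among short numbers, a difference of -0.098, and from 2.99 to 4.64 among long tags, 0.64. In WV, Ogg1 ran from 3.72 to 5.36 CPM floxed and from 3.42 to 4.42 BATI4KO, all 5 of the latter below the floxed mean. That difference of -0.24 (SE 0.15) did not pass either (edgeR adjusted p = 0.686).

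Neil1 and Neil2 cut out oxidised bases, including from open or single-stranded DNA, and each nicks the strand itself. Neil1 in BAT was 5.45 ± 0.552 CPM (SD, n = 5) floxed and 6.84 ± 1.0 (n = 6) BATI4KO. Of the 6 BATI4KO libraries, 5 lay above the floxed mean, and the groups overlapped. Its difference of 0.31 (SE 0.12) did not pass (edgeR adjusted p = 0.259). In WV the Neil1 means were 4.84 ± 0.484 and 4.91 ± 0.504 CPM (SD, n = 5 each), a difference of 0.0039 (SE 0.13, edgeR adjusted p = 0.996).

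Neil2 was 2.171 ± 0.505 CPM in floxed and 2.45 ± 0.317 in BATI4KO BAT, a difference of 0.20 (SE 0.17, edgeR adjusted p = 0.604). With the fibre genes as a covariate this became -0.047. In WV it had 5, 4, 3, 1 and 7 counts in the floxed libraries FX_5413, FX_5415, FX_5497, FX_5503 and FX_5514. The BATI4KO libraries had 19, 5, 8, 2 and 8 counts in tag order, too few to enter the WV fit. The single highest was KO_5492, at 0.608 CPM, and the groups overlapped.

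Neil3, known from dividing cells and from repair of crosslinked DNA, averaged 5.43 ± 0.622 CPM in floxed and 5.70 ± 1.38 in BATI4KO BAT (difference 0.071, SE 0.14, edgeR adjusted p = 0.855). The 12 listed proliferation genes summed to 40.9 to 48.2 CPM in floxed and 41.2 to 49.0 in BATI4KO BAT. Gene by gene, 9 of the 12 had positive genotype differences in BAT and 3 negative, with a median log2 of 0.16, and 0 passed. In WV Neil3 was 3.80 ± 1.076 and 3.37 ± 1.16 CPM (difference -0.19, SE 0.29, edgeR adjusted p = 0.890). Its lowest WV libraries were FX_5413 at 2.11 CPM and KO_5496 at 1.60.

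Mutyh removes adenine that was paired with 8-oxoguanine, and was the least counted member in BAT, with 16 to 50 counts a library. Its floxed BAT libraries stood at 1.16, 0.527, 0.575, 0.429 and 0.581 CPM, the first of them, library 1, far above the rest. The BATI4KO libraries ran from 0.410 to 1.10 CPM (median 0.776). The difference of 0.26 (SE 0.30) did not pass (edgeR adjusted p = 0.715), and was -0.029 among short numbers and 0.64 among long tags. In WV the means were 1.22 ± 0.166 and 1.10 ± 0.257 CPM (difference -0.16, SE 0.23, edgeR adjusted p = 0.881).

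Ung, which removes uracil from DNA in nucleus and mitochondria, was steady in BAT: 7.28 ± 0.708 CPM floxed and 7.76 ± 0.611 BATI4KO (difference 0.086, SE 0.10, edgeR adjusted p = 0.723). In WV it varied far more than counting allows. The floxed libraries FX_5413, FX_5415, FX_5497, FX_5503 and FX_5514 stood at 11, 7.49, 11.9, 7.56 and 17.0 CPM, and the BATI4KO libraries KO_5492 to KO_5496 at 16.6, 7.91, 7.75, 15.7 and 8.84. High and low libraries occur in both genotypes, and the spread of 35.6% and 38.7% compares with counting errors of 6.20% and 5.84%. The WV difference was 0.029 (SE 0.28, edgeR adjusted p = 0.984).

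Smug1 takes out uracil and oxidised forms of it, and varied little, with a relative spread of 6.11% to 8.58% in the 4 groups. It averaged 15.5 ± 1.05 CPM in floxed and 15.5 ± 0.949 in BATI4KO BAT, and 15.4 ± 1.17 and 16.3 ± 1.4 in WV. The fitted differences were -0.013 (SE 0.074, edgeR adjusted p = 0.955) in BAT and 0.071 (SE 0.097, adjusted p = 0.871) in WV. These standard errors are the smallest of the 10 genes in each tissue, so Smug1 is where the smallest difference could have been seen.

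Mbd4 removes thymine or uracil mispaired with guanine at CpG sites. It averaged 2.21 ± 0.329 CPM in floxed and 2.27 ± 0.118 in BATI4KO BAT (difference 0.041, SE 0.13, edgeR adjusted p = 0.913). The WV means were 2.87 ± 0.263 and 2.69 ± 0.347 CPM (difference -0.10, SE 0.16, edgeR adjusted p = 0.890).

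Mpg, the glycosylase for alkylated bases and hypoxanthine, had the lowest p of the 9 in BAT. Its floxed libraries stood at 3.27, 3.86, 3.45, 3.74 and 3.92 CPM, and the BATI4KO libraries ran from 3.76 to 5.34 (median 4.75). All 6 BATI4KO libraries lay above the floxed mean, but the lowest fell among the floxed ones. The difference of 0.33 (SE 0.11) did not pass over all genes (edgeR adjusted p = 0.208). In WV Mpg was 4.40 ± 1.09 and 4.40 ± 0.801 CPM (difference -0.029, SE 0.20, edgeR adjusted p = 0.977).

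In WV, 8 of the 9 could be tested and 0 passed, against 0.00688% of all genes (1 of 14529). At an unadjusted p under 0.05 there were also 0, where 8.91% of all genes had one. DESeq2 and limma voom called 0, where they called 111 and 1 of all 14529 genes. Signs were mixed, 3 positive and 5 negative, with a median of -0.066 against -0.0078 over all genes. The test of whether the genotype difference differs between tissues was passed by 0 of the 9 (0.018% of 16632 genes). It had 1 unadjusted p under 0.05, for Ogg1, at 0.44 (SE 0.20, edgeR adjusted p = 0.449), where 10.6% of all genes had one. DESeq2 and limma voom called 0 there too, against 55 and 2 of all 16632 genes. In the plot of genotype differences, Nthl1, chosen by these values, has the largest estimate in size in BAT and, among the members tested, in WV. Neil2 has no estimate in WV, where its means were 0.174 CPM floxed and 0.314 BATI4KO on few counts.

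**Figure D2:**
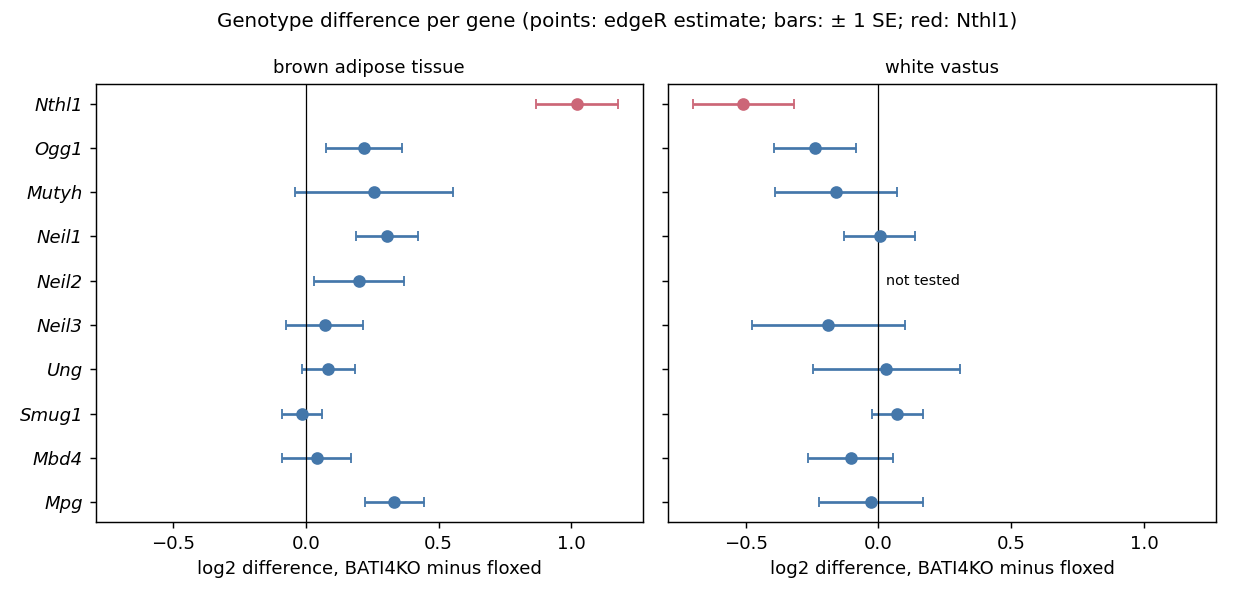
Log2 difference between BATI4KO and floxed libraries for each glycosylase in BAT and in WV; points are edgeR estimates and bars 1 SE to each side, with Nthl1, chosen by these values, in red. The other 9 lie between -0.013 and 0.33 in BAT, the 8 others tested in WV between -0.24 and 0.071, and Neil2 was not tested in WV.

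The handling of strand in counting is not given in the sources used here, and whether reads of neighbouring genes entered the members' counts was not tested. Tsc2, next to Nthl1, was counted far more deeply, with 3209 to 6661 counts a library in BAT. The WV libraries held 2714 to 4793. Tsc2 averaged 137.5 ± 17.0 CPM in floxed and 125.8 ± 13.7 in BATI4KO BAT (difference -0.13, SE 0.10, edgeR adjusted p = 0.572). In WV it was 147.3 ± 45.6 and 162.5 ± 40.4 CPM (difference 0.12, SE 0.21, edgeR adjusted p = 0.909). The estimates for Tsc2 thus had the opposite sign to those for Nthl1 in both tissues, and neither passed.

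Per 100 counts of Tsc2, Nthl1 had 0.706, 0.700, 1.12, 0.624 and 0.621 counts in the floxed BAT libraries, and 1.38 to 1.88 (median 1.65) in the BATI4KO ones. These do not overlap, but Nthl1 was picked for its values in these libraries, so nothing is read from the gap. In WV the ratio was 0.964 to 2.65 floxed (median 1.61) and 0.731 to 1.68 BATI4KO (median 0.918), with overlap. Such a ratio depends on the lengths of both models and serves only to follow the pair across libraries. Slc9a3r2, a scaffold of membrane transporters on the other side of Nthl1, gave -0.20 (SE 0.13, edgeR adjusted p = 0.498) in BAT and -0.50 (SE 0.23, edgeR adjusted p = 0.547) in WV. The plot of Nthl1 against Tsc2 shows both levels and the ratio by library.

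**Figure D3:**
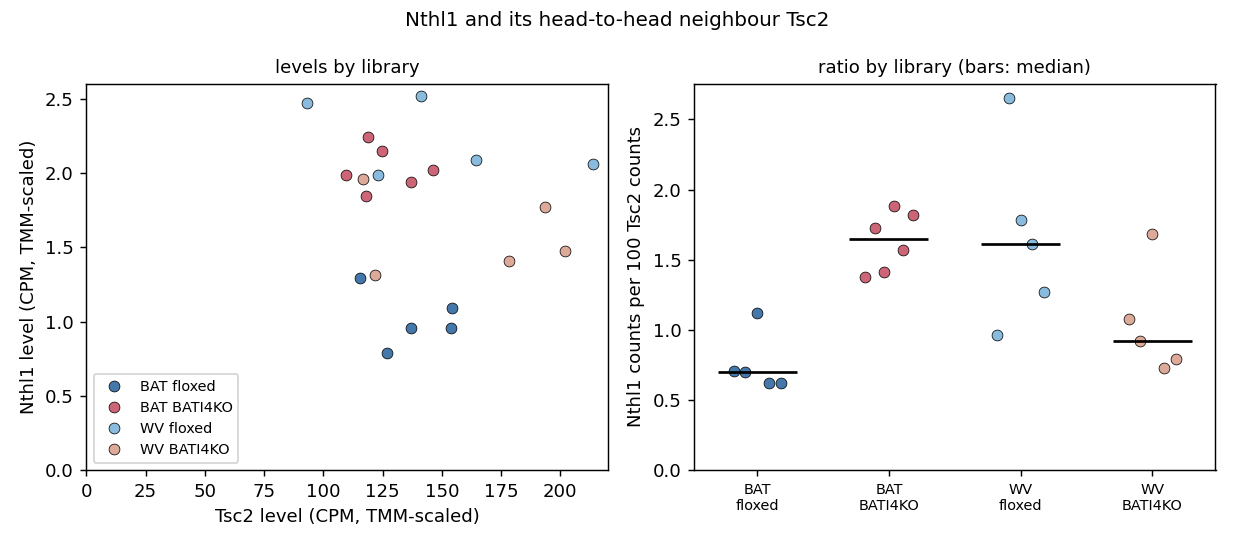
Nthl1 against Tsc2 (both in CPM, TMM-scaled, linear axes from 0) by library, and Nthl1 counts per 100 Tsc2 counts in the 4 groups with the group median as a bar. Tsc2 overlaps between genotypes in both tissues, and the ratio stays at or below 1.12 in floxed BAT and at or above 1.38 in BATI4KO BAT.

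Toe1, the partner of Mutyh, was looked at for its shared promoter and was not on the list of genes to name. It stood at 3.35 ± 1.20 CPM in floxed and 3.23 ± 0.760 in BATI4KO BAT (difference -0.098, SE 0.14, edgeR adjusted p = 0.785), and at -0.13 (SE 0.16, adjusted p = 0.845) in WV. Other members overlap genes in RefSeq's table, and their counts can hold reads of these. They are Ogg1 with the kinase gene Camk1, Ung with Alkbh2, which reverses alkylation, Mpg with Nprl3, a regulator of mTORC1, Mbd4 with Ift122, and Neil3 with a small nuclear RNA locus. In BAT, Camk1 gave 0.0018 (SE 0.11), Alkbh2 0.14 (SE 0.18) and Nprl3 -0.084 (SE 0.10), with edgeR adjusted p-values of 0.996, 0.752 and 0.739. In WV, Camk1 gave -0.14 (SE 0.10, edgeR adjusted p = 0.735) and Nprl3 0.050 (SE 0.094, edgeR adjusted p = 0.912), and Alkbh2 had too few counts for the test.

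The rest of the pathway was read from 22 further genes, the glycosylase Tdg and the abasic endonucleases, polymerases, ligases and cofactors of the later steps, listed with earlier results known. In BAT 0 passed in edgeR, DESeq2 or limma voom, against 0.0436% of all genes in edgeR. DESeq2 and limma voom called 372 and 8 of all 16051 genes. An unadjusted edgeR p under 0.05 was found for 4 of the 22, near the 14.7% of all genes. Of the 22, 15 were positive, with a median of 0.070, where 7827 of all 16051 genes were positive. The lowest p-values were those of Lig1, the replicative DNA ligase (0.43, edgeR adjusted p = 0.203), and Pold1, the catalytic subunit of polymerase delta (0.33, adjusted p = 0.270). Next came Xrcc1, the scaffold for gap sealing (0.22, adjusted p = 0.276), Tdp1, which trims blocked ends (0.38, adjusted p = 0.297), and Apex1, the main abasic endonuclease (-0.28, adjusted p = 0.395). Lig1, Pold1, Xrcc1 and Tdp1 lay above the floxed mean in all 6 BATI4KO libraries, but each overlapped.

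In WV 0 of the 22 passed in these 3 tools, against 0.00688% of all genes in edgeR. DESeq2 and limma voom called 111 and 1 of all 14529 genes. An unadjusted edgeR p under 0.05, held by 8.91% of all genes, was found for 1, Pold4, a small subunit of polymerase delta, at -0.26 (edgeR adjusted p = 0.545). Its libraries did not overlap, as for 1.19% of all genes in either direction. Here 15 were negative, with a median of -0.031, where 7481 of all 14529 genes were negative. Tdg, a glycosylase for mismatched thymine, gave 0.16, Aptx, which clears failed ligations, 0.18, Tdp1 0.23 and Fen1, the flap endonuclease, -0.22, with edgeR adjusted p-values from 0.673 to 0.719. The plot of these genes shows their estimates in both tissues.

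**Figure D4:**
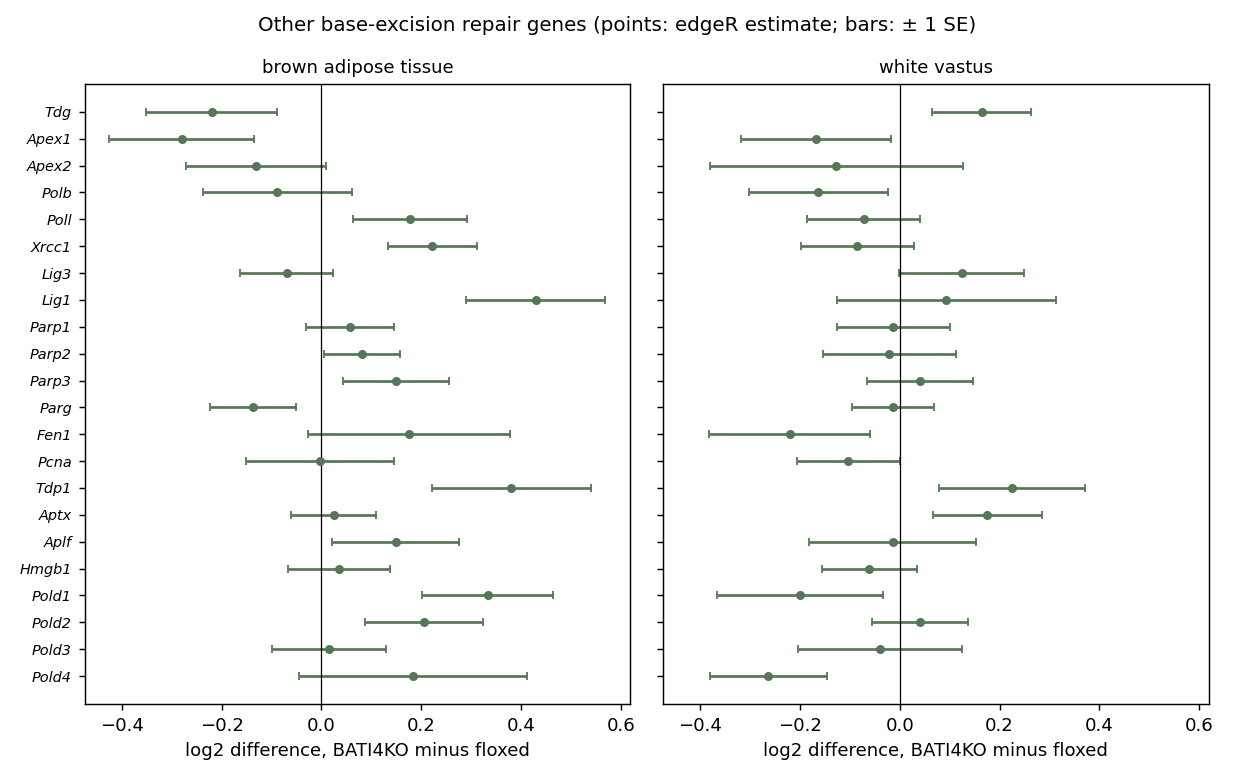
Log2 difference between BATI4KO and floxed libraries for 22 other base-excision repair genes in BAT and WV; points are edgeR estimates and bars 1 SE to each side. The BAT estimates lie between -0.28 and 0.43, those of WV between -0.26 and 0.23, and none passed.

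Besides repair, 5 enzymes that clean the nucleotide pool and 3 that reverse base damage directly were listed. None passed for genotype in edgeR, in BAT (5 and 3 tested, medians -0.030 and 0.12) or in WV (5 and 2 tested, medians -0.068 and 0.043).

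By level, Ung and Smug1 took ranks 1 and 2 of the members in all 4 groups. Levels are compared between genes as CPM per kilobase of model. In floxed BAT the order was Ung (3.18 ± 0.310), Smug1 (2.76), Ogg1 (2.19), Neil1 (2.11) and Mpg (1.72), each overlapping the next. Then, after a gap, came Neil3 (1.19), Neil2 (1.13) and Nthl1 (0.943), which overlap, and after another gap Mbd4 (0.465) and Mutyh (0.377), which overlap. In BATI4KO BAT Nthl1 took rank 6 at 1.88 ± 0.132 CPM per kilobase, above Neil2 (1.28) with no overlap. In floxed WV it took rank 5 at 2.06 ± 0.230, overlapping Mpg (2.08) and Neil1 (1.88), and in BATI4KO WV rank 6 at 1.47 ± 0.253, overlapping Neil1 (1.90). Neil2 was last in WV at 0.0908 floxed and 0.164 BATI4KO.

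Of the 9 members other than Nthl1, 4 differed between the tissues of floxed mice, Neil2 higher in BAT and Mutyh, Ung and Mbd4 lower. The background is high: 65.8% of the 16632 genes tested were called, 34.1% higher and 31.7% lower in BAT. In BATI4KO mice 3 were called, Neil1 and Neil2 higher and Ung lower, where 37.4% of all genes were higher and 33.1% lower. Neil2 was higher in BAT by 3.53 (SE 0.40, edgeR adjusted p = 9.59e-08) in floxed mice, and by 2.80 (SE 0.34, adjusted p = 2.5e-07) in BATI4KO mice. Its BAT libraries all lay above its WV libraries in both genotypes, as for 26.3% of all genes in floxed and 28.8% in BATI4KO mice. The 2 estimates differed by -0.73 (SE 0.51, edgeR adjusted p = 0.644), which did not pass. It passed in every one of the 32 alternatives run for each genotype, at 2.49 or more. Its floxed WV counts of 1 to 7 make the size of the difference imprecise.

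Mutyh was lower in floxed BAT by a log2 of -1.03 (SE 0.32, edgeR adjusted p = 0.00804), and all 5 BAT libraries lay below the WV mean. Without the floxed BAT library FX_5497 it missed the threshold (-0.83, adjusted p = 0.0522), as it did by library totals (-0.35, adjusted p = 0.399). In BATI4KO mice it gave -0.62 (adjusted p = 0.0573). Mbd4 was lower in floxed BAT by -0.42 (SE 0.16, edgeR adjusted p = 0.024). Of 32 alternatives, Mbd4 missed the threshold with the same sign in 7 and changed sign in 1, by library totals. Among the 7 were upper-quartile scaling (adjusted p = 0.120) and the replicate block of the tags found in both tissues (0.132). Others left out the floxed BAT library FX_5497 (adjusted p = 0.0525) or FX_5503 (0.0903), or the floxed WV library FX_5497 (0.0501). In BATI4KO mice it gave -0.29 (adjusted p = 0.0814).

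Ung was lower in BAT by -0.59 (SE 0.26, edgeR adjusted p = 0.049) in floxed and -0.55 (SE 0.24, adjusted p = 0.0494) in BATI4KO mice. Both lie at the threshold, which they missed in 20 and 19 of 32 alternatives, among them leaving out the floxed WV library FX_5514 (-0.38, adjusted p = 0.176) or the BATI4KO WV library KO_5492 (-0.37, adjusted p = 0.171). Neil1 was higher in BAT of BATI4KO mice by 0.55 (SE 0.13, edgeR adjusted p = 0.00075), where 70.5% of all genes were called. With the replicate block of the tags found in both tissues it missed the threshold (0.45, adjusted p = 0.0969). It gave 0.26 (adjusted p = 0.104) in floxed mice. The difference between these estimates is the interaction given above, which none of the 9 passed. Neil3 was not called in the main fit. In BATI4KO mice it passed, higher in BAT, in 11 of 32 alternatives. Among them were DESeq2 (0.51, DESeq2 adjusted p = 0.0476) and limma voom (0.56, limma adjusted p = 0.0427). In floxed mice it passed in 1 of 32, by library totals (0.96).

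The split by direction rests on the scaling. By library totals in place of TMM, the median of all genes moves from 0.11 to 0.79 in floxed and from 0.14 to 1.09 in BATI4KO mice. Counted that way, 5 members were higher and 0 lower in floxed BAT, where 57% of all genes were higher and 15.9% lower. In BATI4KO BAT these were 7 and 0 members, against 68.3% and 13.8% of all genes, so that only the higher Neil2 keeps its direction and call on every scale in floxed mice, with Neil1 and Neil2 doing so in BATI4KO mice. With upper-quartile scaling 2 members were higher and 1 lower in floxed mice (38.3% and 28.5% of all genes), and 3 and 0 in BATI4KO mice (43.8% and 28.5%). Among the 22 other repair genes, 13 were lower and 2 higher in floxed BAT (12 and 3 in BATI4KO BAT), but 5 lower and 7 higher (5 and 12) by library totals. By TMM the shares of all genes were 31.7% lower and 34.1% higher in floxed, and 33.1% and 37.4% in BATI4KO mice, and those by library totals are given above. The lowest p-values in floxed mice were those of Lig3, the mitochondrial and nuclear ligase (-1.65), Poll (-1.67) and Polb (-1.47), gap-filling polymerases, Parp3, a strand-break sensor (-1.53), and Fen1 (-1.95). The plot of tissue differences sets Neil2 apart from the other members.

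**Figure D5:**
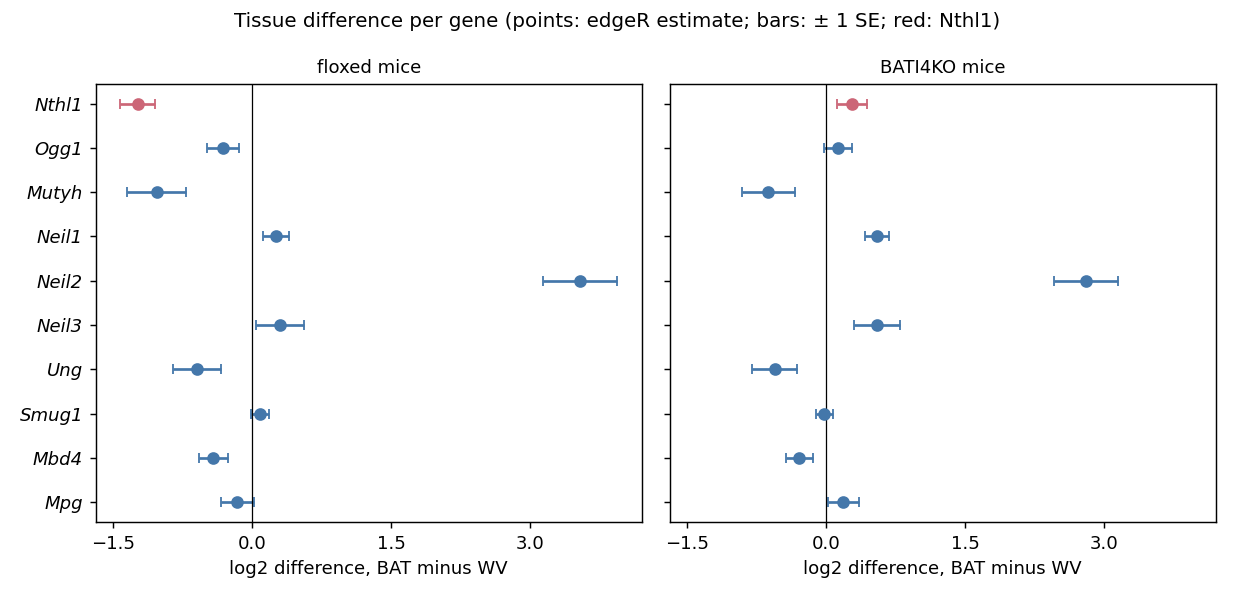
Log2 difference between BAT and WV libraries for each glycosylase in floxed and in BATI4KO mice; points are edgeR estimates (for BAT libraries with long tags) and bars 1 SE to each side, with Nthl1 in red. Neil2 lies at 3.53 and 2.80, and the other members between -1.23 and 0.55.

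The genes whose levels followed Nthl1 most closely were found over all 21 libraries, by the Pearson correlation of log2 CPM centred on each tissue's mean, among 14104 models. The libraries share the genotype groups and depth, so the likeness is a description. Mocos, a molybdenum cofactor sulfurase, was closest (r = 0.85), followed by Ssh3, a cofilin phosphatase (0.81), 5033414D02Rik (0.79), Peli3, a ubiquitin ligase (0.79), and Tcirg1, a proton pump subunit (0.77). Mocos averaged 6.12 and 9.08 CPM in floxed and BATI4KO BAT, and 4.38 and 3.79 in WV. All 5 had positive estimates in BAT (0.38 to 0.89) and negative ones in WV (-0.11 to -0.30). Choosing genes by their likeness to Nthl1 favours these directions, so they are given with no test. Within the family, Ogg1 came nearest (r = 0.58, rank 155), then Neil1 (0.33) and Mpg (0.31), while Smug1 (-0.15) and Ung (-0.10) were negative. Tsc2 had r = -0.30.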

How the data were processed

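RNA libraries of whole BAT and WV were analysed, 21 in all. Per the labels' protocols, ribosomal RNA was depleted and cDNA was primed with random hexamers and tagmented. The authors deposited raw counts per gene model beside the model's length, as the file headers show. The submitters' processing notes name featureCounts 1.4.6 and TopHat2 2.0.14, further SAMtools 0.1.19, bcl2fastq 2.17.1.14, edgeR and Picard 2.2.4, and the build mm9. Strand handling is not given in the sources used here, so overlapping genes cannot be told apart.

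From the counts, genes were filtered with edgeR's filterByExpr, normalised with TMM factors and fitted in edgeR 4.0.16 under R 4.3.3 (quasi-likelihood test, Benjamini-Hochberg over all genes, threshold 0.05). BAT was fitted with title style as a covariate, WV without, and tissue and interaction terms over all 21 libraries, where a tissue difference is that of BAT libraries with long tags. Standard errors are the log2 difference divided by the root of F. Alternatives used other scalings and filters, DESeq2 1.42.0, limma 3.58.1, left-out libraries and a fibre-gene covariate. Those for title style, for the other repair genes and for the overlap of Nthl1 libraries were chosen after seeing the data. The procedure was checked on simulated counts.

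The members and lists were chosen with earlier results of these data known. Named were all members, Irf4, the neighbours of Nthl1, overlapping genes, the 5 repair genes with the lowest p per genotype comparison and in floxed tissue, and the 5 genes most like Nthl1. In the list of repair genes, 1 gene was left out and is not reported here. Replicate libraries differed by more than sampling noise (smallest chi-square per gene 30.4), so all were kept. Reads without molecular identifiers are not independent molecules, so counting errors cover counting only. RefSeq tables of GRCm38.p6 gave promoters and neighbours by symbol, and no mm9 coordinates are printed.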

Additional observations from a re-analysis of the deposited data

Results flagged for a closer look

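Nthl1 moved in opposite directions: all 6 BATI4KO libraries of BAT lay above the floxed mean and all 5 BATI4KO libraries of WV below it, and the genotype difference in BAT exceeded that in WV by 1.51 on the log2 scale (SE 0.22). The difference was not tested, since it chose the gene.

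Of 40 sets of libraries (10 members in 4 groups), 3 had a library far from the others by Dixon's criterion, and chance flags about 1 in 20. Mutyh in floxed BAT library 1 stood at 1.159 CPM (50 counts), the other 4 at 0.429 to 0.581. Mbd4 in BATI4KO BAT library KO_5494 stood at 2.048 CPM, the other 5 at 2.25 to 2.37. Smug1 in BATI4KO BAT library 1 stood at 13.74 CPM, the other 5 at 15.5 to 16.5.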

How the results depend on the processing

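The genotype tests called 0 of the 9 members other than Nthl1 in BAT, in WV and for the difference between tissues, in each of the alternatives run (24, 18 and 32). For tissue in floxed mice, 4 were called (10952 of 16632 genes), and 2 with no expression filter (11166 of 23456 genes). The replicate block of the 4 tags found in both tissues also gave 2 (9425 of 16622 genes), and leaving out 1 library gave 1 to 4. For tissue in BATI4KO mice, 3 were called, 5 with RLE size factors, 7 by library totals, 6 in DESeq2, 1 (Neil2) with the replicate block and 2 to 5 with 1 library left out. Of all 16632 genes, 11718 were called, 11643 with RLE size factors, 13653 by library totals and 11795 in DESeq2. The replicate block called 9244 of 16622 genes. For title style 0 were called, 1 with upper-quartile scaling, 1 by library totals, and 0 to 1 with 1 library left out. Of all 16051 genes, 5031 were called for style, 5089 with upper-quartile scaling and 5044 by library totals. Same-numbered libraries did not deviate together (r from -0.11 to 0.13), so the numbers are not shown to pair them. Each pair spans 2 tissues or 2 genotypes, and floxed BAT has only 2 long-tag libraries, whose deviations mirror each other. The check therefore cannot decide whether the numbers pair libraries.

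By library totals, these tissue differences changed sign in floxed mice: Mbd4 0.28, Mpg 0.52, Ogg1 0.37 and Ung 0.13. In BATI4KO mice these did: Mbd4 0.64, Mutyh 0.30, Smug1 0.92 and Ung 0.38. The genotype differences that turned by totals were Neil1 -0.096, Smug1 -0.022 and Ung -0.028 in WV, and Smug1 0.12 and Tsc2 0.0037 in BAT. Upper-quartile scaling turned Neil1 in WV (-0.0060), Smug1 in BAT (0.025) and Smug1 between tissues of BATI4KO mice (0.16). A filter of 1 CPM turned Neil1 in WV (-0.0023), Smug1 in BAT (0.00049) and Smug1 between tissues of BATI4KO mice (0.0091), the last also with no filter (0.0083). In BAT, short numbers alone turned Mbd4 (-0.015), Mutyh (-0.029), Ogg1 (-0.098) and Tsc2 (0.0043), and the replicate block within them gave -0.0022, -0.040, -0.10 and 0.011. Long tags alone turned Neil3 (-0.17) and Ung (-0.11). The fibre-gene covariate turned Mutyh (-0.042), Neil2 (-0.047), Neil3 (-0.070) and Smug1 (0.0094).

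With 1 library left out, differences that changed sign in some case ranged as follows. In BAT, Mbd4 ran from -0.013 to 0.11 and Smug1 from -0.027 to 0.020. In WV, Mpg ran from -0.14 to 0.11, Neil1 from -0.035 to 0.058, Ung from -0.16 to 0.24 and Tsc2 from -0.0051 to 0.29. Smug1 between tissues ran from -0.019 to 0.12 in floxed and from -0.099 to 0.026 in BATI4KO mice. The cause of these changes was not tested. None of the genotype values that turned had passed. The genotype differences of Nthl1 kept their sign throughout, at 0.88 to 1.22 in BAT and -0.63 to -0.44 in WV. These signs chose the gene, and in BAT every BATI4KO library lay above every floxed one. Leaving out or splitting libraries could thus hardly turn the BAT sign, and nothing is read from the kept signs. The tissue differences of Nthl1 kept their sign too but varied more in size, at -1.37 to -0.55 in floxed and 0.20 to 1.23 in BATI4KO mice. Counts of 29 to 102 a library limit the precision of Nthl1, and those of 1 to 19 limit Neil2 in WV.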
